A study of Mus musculus with 10 samples.

Results

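The genes described are those encoding the proteins of the cytosolic ribosome. They were picked from the table of all genes by symbol, as protein-coding genes named Rpl or Rps with a number, the stalk genes *Rplp0*, *Rplp1* and *Rplp2*, and *Rpsa*, with pseudogenes left out by their biotype. This gave 79 of the 29268 genes listed, of which 45 belong to the large subunit, 31 to the small subunit and 3 to the stalk. Their mRNA was measured by RNA-seq in whole uteri of 4-month-old mice, 5 HSD17B1TG (TG1 to TG5) and 5 WT (WT1 to WT5), each giving 1 library. HSD17B1TG mice on the FVB/N background carry the human HSD17B1 cDNA, which encodes the enzyme that turns estrone into estradiol, under a chicken beta-actin promoter with a cytomegalovirus enhancer, so that the enzyme is made in all tissues. These females have no estrous cycle, whereas the WT uteri were taken without selecting a cycle phase, so genotype and cycling cannot be told apart. The transgene is human and is not among the mouse genes listed, and mouse *Hsd17b1* says nothing about it.

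The cytosolic ribosome joins a small subunit, which decodes the mRNA, and a large subunit, which forms the peptide bond, and the stalk on the large subunit recruits the translation factors. Its proteins are made in nearly equal numbers from genes scattered over the chromosomes, and their mRNAs are among the most abundant of a growing cell. These mRNAs typically begin with a C followed by a run of pyrimidines, the 5′ terminal oligopyrimidine (TOP) tract, through which mTORC1 and the protein LARP1 control their translation, while MYC raises their transcription. In the rodent uterus, estrogen is known to raise RNA and protein synthesis in the epithelium and to cause growth.

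The start sites of the genes were read from RefSeq (GRCm38.p6), in which 59 of the 79 genes had an entry. A C at the start followed by 4 bases that are each C or T stood at 12 of the 59 starts (20.3%), against 2.51% of all 32851 annotated starts. A run of 8 or more C or T within 5 bases of the start was present at 20 of 59 (33.9%), against 9.38% of all starts. The letters CCGGAAG, the core bound by ETS family factors, were found on either strand in the 300 bases around the start in 23 of 59 (39%), against 8.86% of all starts, AAGATGG, the core of the YY1 motif, in 13.6% against 6.34%, and TATAAA, the TATA box, in 8.47% against 13.6%. No overlap between these 3 motifs was searched for. The letters are a description of annotated windows, and no start was measured here. The first 4 sequences below, picked after the features were counted, belong to the most abundant mRNAs with a C and 4 pyrimidines at the start, and the other 5 are genes that the values below turn on. Each covers 15 bases before and 15 bases from the start, read 5′ to 3′, and capitals mark, as far as it lies in the window, the longest run of C or T among those that hold a base within 5 bases of the start, so a longer run further off stays in lower case.
Rps6, chr4:86857353-86857382, minus strand: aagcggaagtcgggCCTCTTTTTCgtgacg
Rpl38, chr11:114668565-114668594, plus strand: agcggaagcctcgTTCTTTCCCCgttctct
Rps21, chr2:180257364-180257393, plus strand: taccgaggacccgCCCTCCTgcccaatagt
Rps27, chr3:90213634-90213663, minus strand: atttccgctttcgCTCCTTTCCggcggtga
Rpl13a, chr7:45128731-45128760, minus strand: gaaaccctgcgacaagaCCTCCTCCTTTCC
Rpl39, chrX:37085208-37085237, minus strand: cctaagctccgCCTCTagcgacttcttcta
Rps27l, chr9:66946071-66946100, plus strand: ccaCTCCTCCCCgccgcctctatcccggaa
Rps15, chr10:80292416-80292445, plus strand: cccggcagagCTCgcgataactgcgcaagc
Rpl41, chr10:128549154-128549183, minus strand: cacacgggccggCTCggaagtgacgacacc

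The depth was between 14817228 and 23271988 counts per mouse, and the count of each ribosomal protein gene over 50 FPKM was at least 1432 in each mouse, so counting error was small beside the differences between mice. Values were compared as deposited FPKM (fragments per kilobase of gene length, scaled between mice). This scaling was not by depth alone. *Rpsa* had 522 FPKM in TG5 and 499 in WT2, but 1412 and 1841 CPM of all counts, which are scaled by total counts only. The positions of mice in FPKM depend on this scaling. Tests were made on the raw counts by the quasi-likelihood method of edgeR with TMM scaling. Benjamini-Hochberg adjustment was over the 16993 genes that passed the filter on low counts. Of the 79 genes, 78 passed it. Fewer cells of a type and less RNA per cell cannot be told apart in whole tissue.

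The ribosomal protein genes took a smaller share of all counts in the HSD17B1TG uterus. The share was 4.30% in TG1, 3.75% in TG2, 4.02% in TG3, 5.17% in TG4 and 5.45% in TG5. It was 6.19% in WT1, 5.97% in WT2, 8.24% in WT3, 5.55% in WT4 and 7.82% in WT5. The highest HSD17B1TG mouse lay just under the lowest WT mouse, and the means were 4.54% ± 0.740 (SD, n = 5) and 6.76% ± 1.20 (n = 5), a ratio of 0.672. The separation between the groups was narrow and depended on the total. With the mitochondrially encoded genes left out of the total, TG5 reached 5.90% and overlapped WT4 at 5.75%, and without the 10 highest genes of each mouse TG5 reached 6.23% and WT4 5.90%. As a share of summed FPKM, the groups were further apart, at 7.60% to 9.23% in HSD17B1TG and 10.5% to 15.1% in WT. Mitochondrially encoded genes took 1.94% to 7.57% of the counts in HSD17B1TG and 2.58% to 3.37% in WT, and their part in the share was not tested.

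The genes varied together from mouse to mouse. With TMM scaling, the median deviation of the 78 genes from their own means over the 10 mice was -0.27 on the log2 scale in TG1, -0.42 in TG2, -0.46 in TG3, -0.03 in TG4 and 0.22 in TG5. It was 0.10 in WT1, -0.05 in WT2, 0.47 in WT3, 0.04 in WT4 and 0.44 in WT5. The 3 lowest mice were thus HSD17B1TG and the 2 highest were WT, and the other 5 mice overlapped. In FPKM, 30 of the 78 genes had their lowest value in TG2 and another 30 in TG3, while 34 had their highest value in WT3 and 28 in WT5. TG5 stood apart from the other HSD17B1TG mice, with 66 of 78 genes above their own mean with TMM scaling and 10 at their highest in FPKM. This position depended on the scaling, since with total counts alone the deviation of TG5 was -0.02, and its TMM factor of 0.845 was the lowest of the 10. The median SD of the genes within a group on the log2 CPM scale was 0.32 in HSD17B1TG and 0.27 in WT, against 0.44 and 0.37 for all genes tested. On the log2(FPKM + 1) scale this order turned, with 0.31 and 0.27 for the ribosomal protein genes and 0.29 and 0.25 for all genes.

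**Figure D1:**
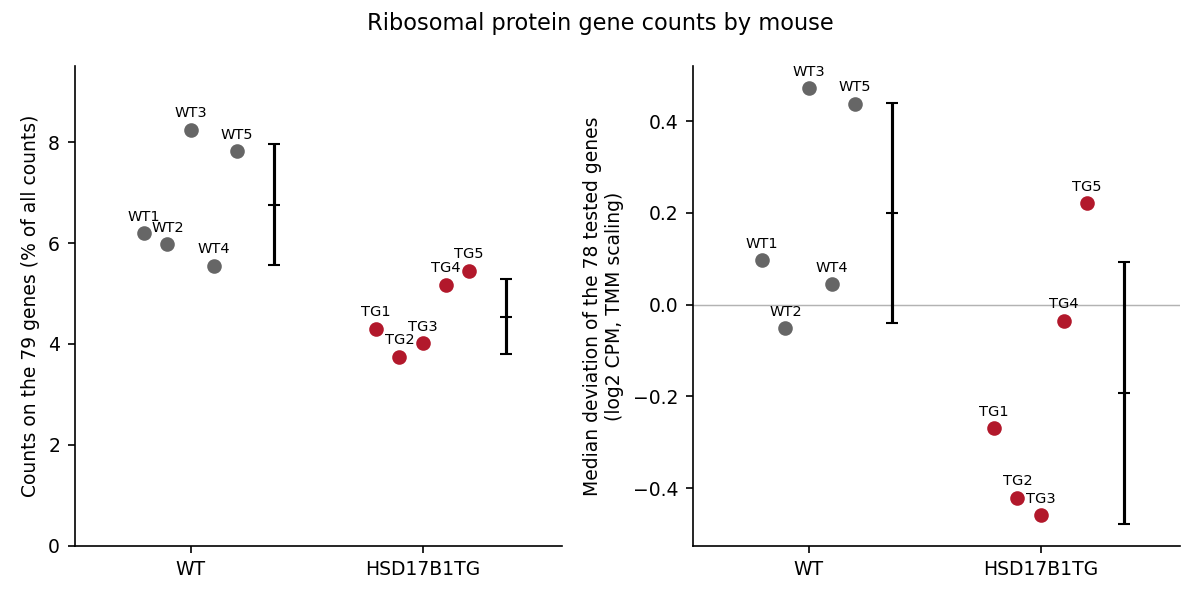
Share of counts on the 79 ribosomal protein genes (left, percent of all gene counts of a mouse) and median deviation of the 78 tested genes from their means over the 10 mice (right, log2 CPM with TMM scaling), with 1 point per mouse and the group mean ± SD (n = 5) beside the points. The shares of the HSD17B1TG mice end at 5.45% and those of the WT mice start at 5.55%, and in the right panel TG4 and TG5 overlap the WT mice.

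**Figure D2:**
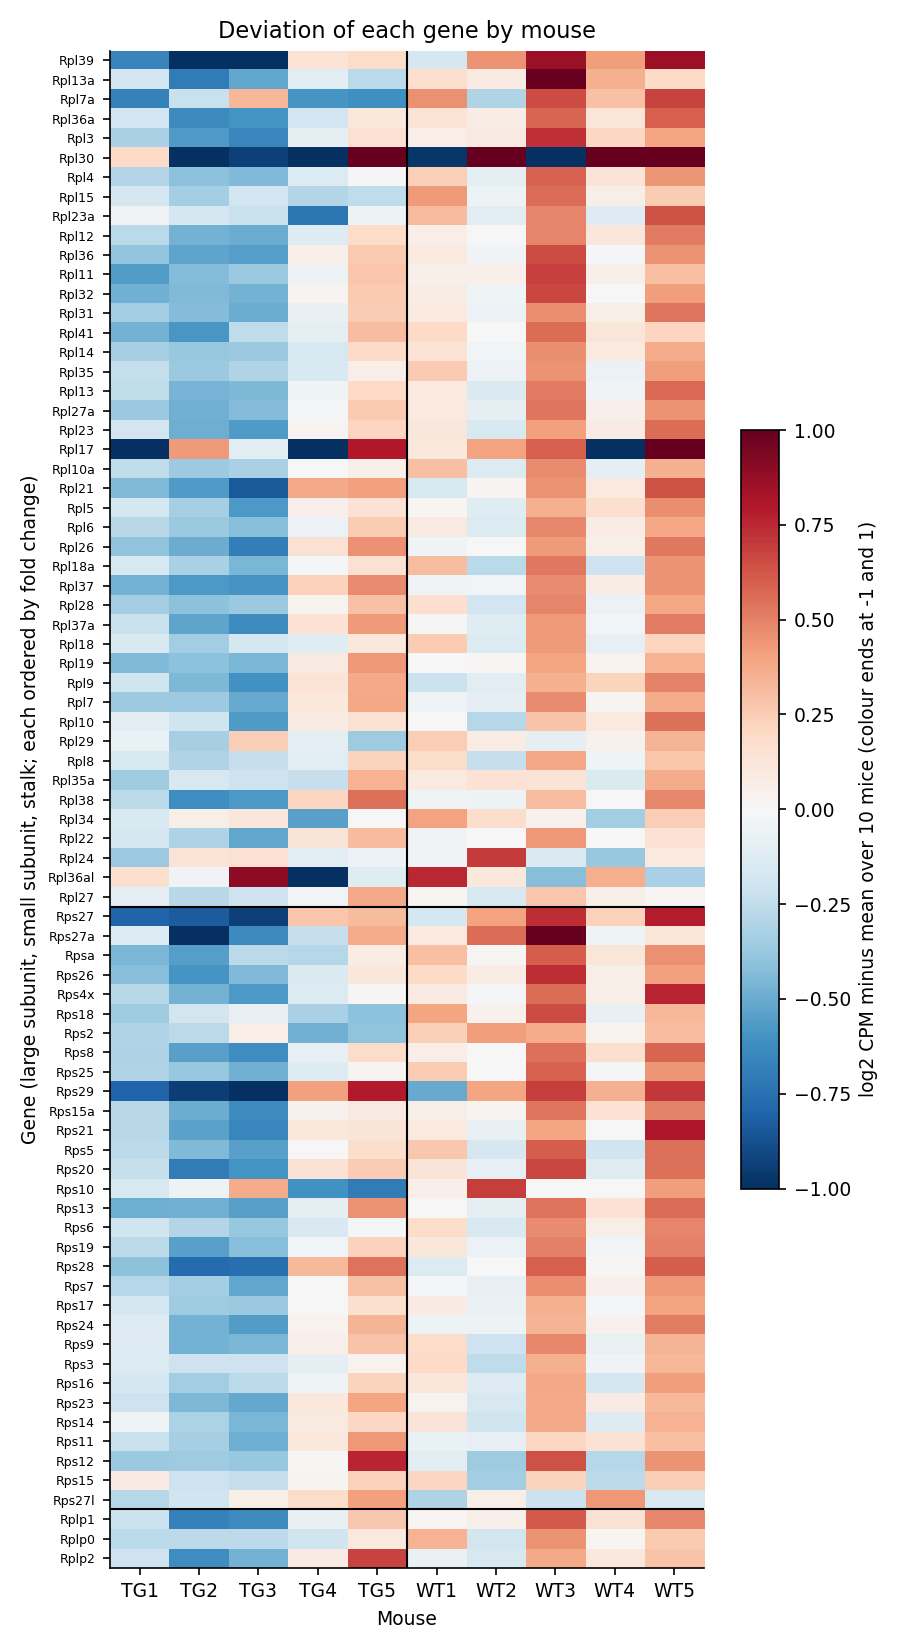
Deviation of each of the 78 tested genes (rows) from its mean over the 10 mice (columns), in log2 CPM with TMM scaling, from blue (lower) to red (higher), with the colour ending at -1 and 1. TG1 to TG3 are lower and WT3 and WT5 higher for most genes, and *Rpl17* and *Rpl30* follow another pattern.

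In the edgeR test few single genes passed. At an adjusted p under 0.05, 1 of 78 genes (1.28%) was lower in HSD17B1TG, against 2.81% of all genes tested, and 0 were higher, against 3.34%. At an unadjusted p under 0.05, 22 of 78 (28.2%) were lower, against 11.4% of all genes, and 0 were higher, against 14.7%. When the fold also had to exceed 2 and the mean FPKM 1, 0 genes were called in either direction, against 2.08% lower and 2.16% higher of all genes. DESeq2 on the same counts called 14 of 78 genes lower (17.9%), against 7.19% of all genes, and 0 higher, against 10%. At an unadjusted p under 0.05, DESeq2 had 31 lower (39.7%), against 12.9%, and 0 higher, against 16.5%. Limma voom called 0 lower, against 1.64%, and 0 higher, against 3.24%, and at an unadjusted p under 0.05 it had 29 lower (37.2%), against 11.7%, and 0 higher, against 14.4%. After adjustment, the share called lower was thus under that of all genes with edgeR and limma voom and above it with DESeq2, and at an unadjusted p the share lower was above it with all 3 tools.

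The direction was shared far more than the calls. The log2 fold change was below 0 for 77 of 78 genes (98.7%), against 49.8% of all genes, and the one gene above it (1.28%, against 50.2%), *Rps27l*, was also below it with upper quartile scaling or total counts. The median was -0.38, with quartiles of -0.50 and -0.27, against 0.00 for all genes tested. It was -0.37 for the 44 large subunit genes tested, -0.44 for the 31 small subunit genes and -0.37 for the 3 stalk genes. The counts of the large subunit and stalk genes together over those of the small subunit genes gave a ratio of 1.41 ± 0.034 in HSD17B1TG and 1.40 ± 0.034 in WT. This ratio differed by less than the spread between mice. Scaling by total counts alone moved the median of all genes to -0.17 and that of the ribosomal protein genes to -0.58, and 18 of them (23.1%) were then called lower, against 4.65% of all genes, and 0 higher, against 2.38%. With upper quartile scaling, 4 were called lower (5.13%), against 3.62%, and 0 higher, against 2.79%. The genes share libraries and deviate together, so these counts do not stand for 78 separate observations.

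**Figure D3:**
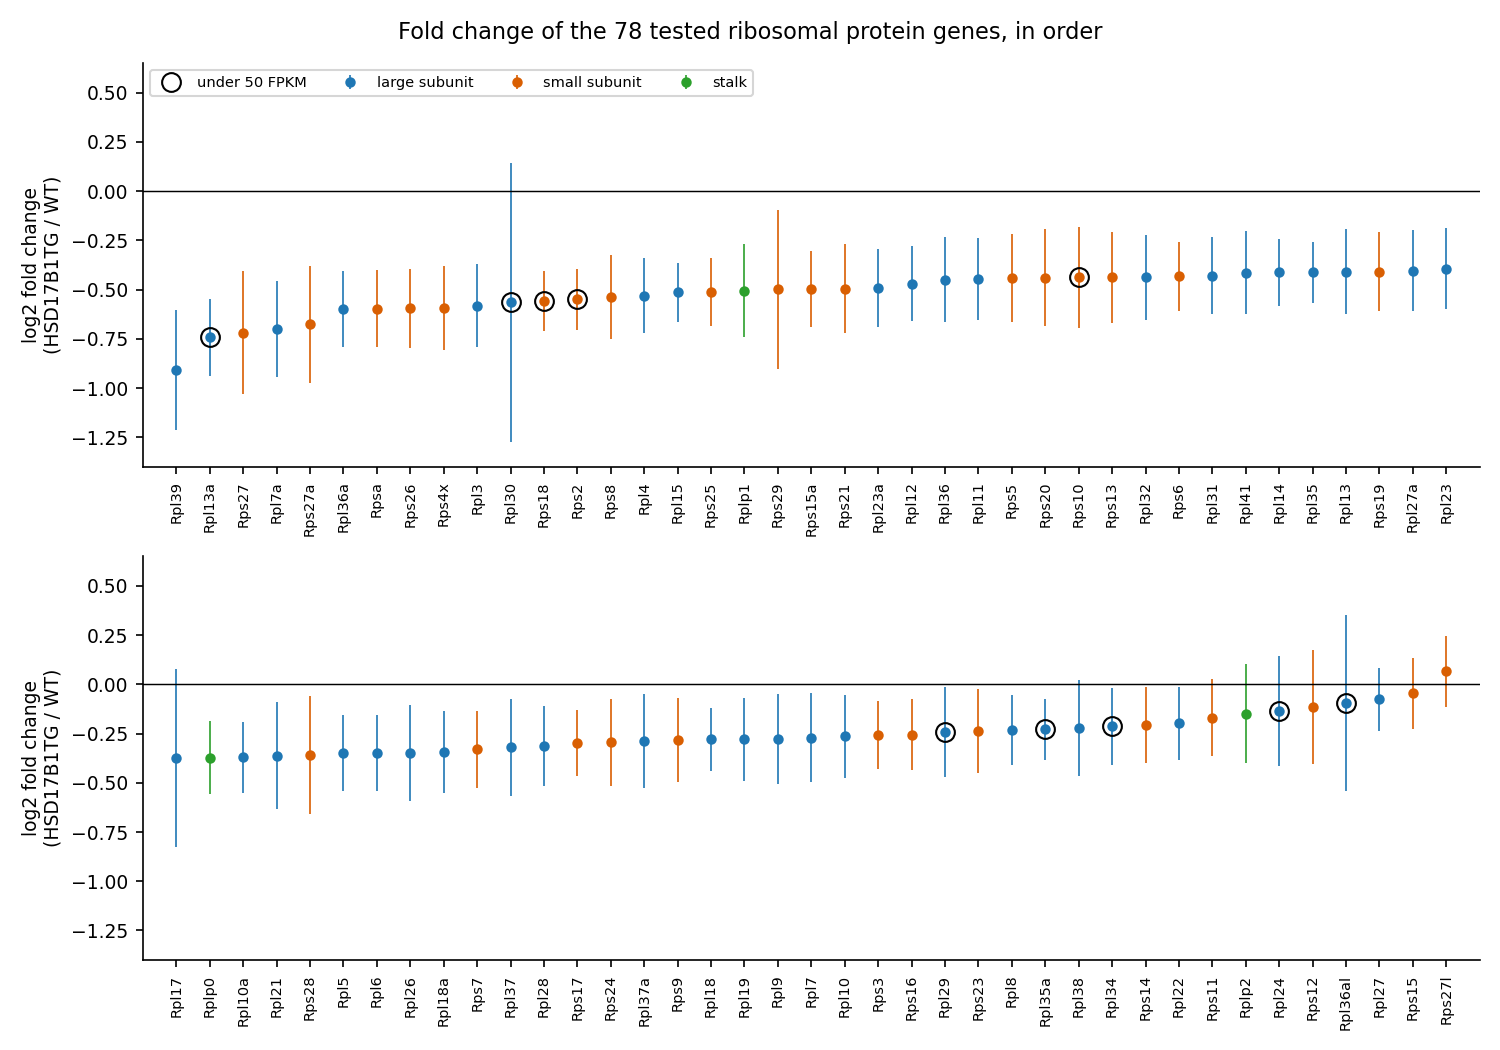
The log2 fold change (HSD17B1TG over WT) ± SE of each of the 78 tested genes, from the lowest to the highest, coloured by subunit, with a ring around genes under 50 FPKM. The values run from -0.91 for *Rpl39* to 0.07 for *Rps27l*.

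Among the 44 large subunit genes tested, *Rpl13a* was the one gene called by edgeR (2.27%, against 2.81% of all genes). DESeq2 called 7 of the 44 lower, against 7.19% of all genes, which were *Rpl13a*, *Rpl3*, *Rpl4*, *Rpl15*, *Rpl35*, *Rpl36a* and *Rpl39*. The protein of *Rpl13a* is also known as a part of a complex that holds back translation of inflammatory mRNAs after interferon. *Rpl13a* (chr7:45125558-45128761) had 19.97 FPKM in TG1, 13.9 in TG2, 16.0 in TG3, 20.8 in TG4 and 18.8 in TG5, against 25.6 in WT1, 23.8 in WT2, 44.6 in WT3, 29.2 in WT4 and 25.9 in WT5. The groups did not overlap, which was seen for 2.65% of all genes tested. *Rpl13a* fell by 0.74 on the log2 scale (SE 0.194, edgeR adjusted p = 0.0493, exact permutation p = 0.00794, the smallest that 5 against 5 mice allow). The call was narrow. It was kept in 2 of 10 fits that left out 1 mouse, those without TG1 and without WT4, and in the other 8 the edgeR adjusted p rose to between 0.0630 and 0.112. The share of all genes called lower also moved in these fits, from 0.173% without TG5 to 6.07% without WT4. In 12 other settings the call was kept in 9, and the adjusted p ran from 0.00837 with DESeq2 to 0.0703 with the number that the labels give each mouse as a covariate.

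*Rpl15*, which lies at the core of the large subunit, was the other gene whose groups did not overlap, making 2 of 78 (2.56%) against the 2.65% of all genes. It had 183, 161, 182, 167 and 171 FPKM in TG1 to TG5 and 277, 196, 299, 215 and 243 in WT1 to WT5, with a log2 fold change of -0.51 (SE 0.149, edgeR adjusted p = 0.0620). The HSD17B1TG mice held to a narrow band, 173 ± 9.77 FPKM, while the WT mice spread over 246 ± 42.5, and *Rpl15* was called by edgeR when WT4 was left out, with upper quartile scaling and with total counts, and by DESeq2.

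*Rpl39*, a small protein that lines the exit tunnel for the growing peptide, had the lowest log2 fold change, -0.91 (SE 0.304, edgeR adjusted p = 0.0917). It was at 192 FPKM in TG1, 147 in TG2 and 149 in TG3, but at 330 in TG4 and 341 in TG5. WT1 had 268 FPKM, which is under TG4 and TG5, and WT2 to WT5 had 408, 543, 406 and 541. TG1, TG2 and TG3 were thus the low mice, and TG4 and TG5 overlapped WT. *Rpl39* lies on the X chromosome with *Rpl10*, *Rpl36a* and *Rps4x*, and the median of these 4 was -0.60.

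*Rpl7a* had 81.0, 110, 165, 85.4 and 83.9 FPKM in TG1 to TG5 and 179, 104, 201, 159 and 205 in WT1 to WT5. Its log2 fold change was -0.70 (SE 0.244, edgeR adjusted p = 0.101), and TG3 and WT2 lay among the mice of the other group. Without TG3, *Rpl7a* was called, with a log2 fold change of -0.94 (edgeR adjusted p = 0.0322). *Rpl3*, which sits near the peptidyl transferase centre, had 228 ± 52.8 FPKM in HSD17B1TG and 340 ± 67.0 in WT, with a log2 fold change of -0.58 (SE 0.210, edgeR adjusted p = 0.110). At the other end, *Rpl27* was at 325 ± 61.4 FPKM in HSD17B1TG and 341 ± 36.7 in WT, a log2 difference of -0.08 (SE 0.160) that is smaller than its error and ran from -0.20 without TG5 to -0.017 without TG2.

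*Rpl36* and *Rpl41*, the most abundant large subunit mRNAs per kilobase of the table's gene length, had 1150 ± 299 and 1069 ± 273 FPKM in HSD17B1TG, against 1564 ± 334 and 1419 ± 208 in WT. Neither passed the test, with edgeR adjusted p-values of 0.216 and 0.243. TG5 lay above 3 of the 5 WT mice for *Rpl36*, at 1569 FPKM, and above 4 of them for *Rpl41*, at 1499. In CPM of all counts, TG5 had 513 for *Rpl36*, above only WT4 at 498. For *Rpl41* it had 1495, under WT4, the lowest WT mouse, at 1534. The order of levels depends on the length used. *Rpl41*, which encodes the shortest of these proteins, moved from rank 4 to rank 2, and *Rpl36* from rank 2 to rank 12, when the main transcript replaced the gene length.

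Among the 31 small subunit genes, edgeR called 0 in either direction, against 2.81% lower and 3.34% higher of all genes. DESeq2 called 7 of the 31 lower, against 7.19% of all genes, namely *Rps2*, *Rps4x*, *Rps6*, *Rps18*, *Rps25*, *Rps26* and *Rpsa*. After *Rpl13a*, *Rps18* and *Rps2* had the smallest edgeR adjusted p-values of the 78 genes. *Rps18* was at 13.6, 15.2, 16.6, 13.8 and 13.03 FPKM in TG1 to TG5 and at 22.9, 17.7, 27.0, 16.6 and 21.7 in WT1 to WT5, a log2 fold change of -0.56 (SE 0.151, edgeR adjusted p = 0.0522). TG3 and WT4 were level, and otherwise the groups were apart. *Rps2* was at 8.23 ± 1.35 FPKM in HSD17B1TG and 12.0 ± 1.11 in WT, with a log2 fold change of -0.55 (SE 0.155, edgeR adjusted p = 0.0580). Both genes were called by edgeR when TG3 or WT4 was left out, and with all 10 mice by DESeq2 and by edgeR with upper quartile scaling or total counts. Both have near-identical copies elsewhere in the genome. With pseudogene counts added, the log2 ratio of the group means, in CPM of all counts, moved from -0.72 to -0.41 for *Rps2*. For *Rps18* it moved from -0.73 to -0.71.

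*Rpsa*, which doubles as a laminin receptor at the cell surface, had 364, 338, 421, 407 and 522 FPKM in TG1 to TG5 and 618, 499, 751, 545 and 679 in WT1 to WT5. Its log2 fold change was -0.60 (SE 0.194, edgeR adjusted p = 0.0839). In FPKM only TG5 reached into the WT range, above WT2. In CPM of all counts TG5, at 1412, lay under WT4, the lowest WT mouse, at 1711. *Rps6*, the target of the S6 kinases downstream of mTORC1, had 604 ± 55.0 FPKM in HSD17B1TG against 812 ± 149 in WT, and its log2 fold change was -0.43 (SE 0.176, edgeR adjusted p = 0.149). *Rps27a*, which is made as a fusion with ubiquitin, had 210, 104, 150, 195 and 296 FPKM in TG1 to TG5 and 248, 335, 462, 225 and 248 in WT1 to WT5, with a log2 fold change of -0.68 (SE 0.297, edgeR adjusted p = 0.180). In FPKM the same mouse, TG5, stood above the other HSD17B1TG mice in all 3 genes. In CPM of all counts, TG4 was higher than TG5 for *Rps6*, at 961 against 926.

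*Rps29*, a zinc-binding protein near the head of the small subunit, was split across mice rather than groups. It had 603 FPKM in TG1, 542 in TG2 and 498 in TG3, but 1387 in TG4 and 1813 in TG5. WT1 had 743, and WT2 to WT5 had 1362, 1672, 1348 and 1702. Thus TG1, TG2, TG3 and WT1 were low and the other 6 mice were high, and the log2 fold change of -0.50 carried an SE of 0.403 (edgeR adjusted p = 0.468) and was -0.85 without TG5 and -0.35 without TG2. *Rps27* was divided the same way, at 266 to 289 FPKM in TG1 to TG3 and 448 in WT1, against 592 to 859 in the other 6 mice, and so was *Rpl39*. The labels also give each mouse a number, whose meaning they do not state. The 5 lower numbers, 673 to 687, belong to TG1, WT1, TG2, TG3 and WT2, and the 5 higher, 696 to 701, to TG4, WT3, WT4, TG5 and WT5, so the 4 low mice have the 4 lowest numbers. Within the lower numbers, *Rps29* was at 498 to 603 FPKM in HSD17B1TG and 743 to 1362 in WT, and within the higher at 1387 to 1813 and 1348 to 1702. The share of counts on all 79 genes was 3.75% to 4.30% in HSD17B1TG and 5.97% to 6.19% in WT within the lower numbers, and 5.17% to 5.45% and 5.55% to 8.24% within the higher. With the number as a linear covariate, an alternative added after seeing the data, edgeR called 0 of the 78 genes lower, against 2.43% of all genes, and 0 higher, against 3.21%. At an unadjusted p under 0.05, 20 (25.6%) were lower, against 11.6%, and 0 higher, against 14.8%, and the median was -0.31. The number thus moved with the level of *Rps29*, and its part was not tested further. The mRNAs of *Rps29* and *Rps27* are short. The 13 tested genes with a main transcript of at most 500 bases had median deviations of -0.28, -0.54, -0.58, 0.10 and 0.31 in TG1 to TG5, while the 34 over 800 bases had -0.28, -0.41, -0.47, -0.08 and 0.19. In the 27 other genes of at most 500 bases and over 5 log2 CPM, the medians were -0.05, -0.14, -0.06, 0.00 and 0.46, so TG5 was high among these too, and the part of mRNA length in the position of TG5 was not tested. The difference between the group means of these medians was -0.38 for at most 500 bases, -0.37 for the 31 genes of over 500 and up to 800 bases and -0.41 above.

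*Rps15* and *Rps12* showed no difference that exceeded their errors. *Rps15*, a protein of the small subunit head, was abundant at 1261 ± 168 FPKM in HSD17B1TG and 1298 ± 248 in WT, with a log2 fold change of -0.05 (SE 0.180). *Rps12* was at 313 ± 123 and 337 ± 106 FPKM, with a log2 fold change of -0.11 (SE 0.289), and without WT3 this difference was 0.02. An effect of the average size of the group lies within 2 SE for both.

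The stalk genes held the most abundant mRNA of the set. *Rplp1*, which with *Rplp2* forms the flexible arms of the stalk, had 2813, 2021, 2135, 3068 and 3914 FPKM in TG1 to TG5 and 3314, 3339, 4931, 3644 and 4508 in WT1 to WT5. In FPKM, TG5 lay above 3 of the 5 WT mice. In CPM of all counts it had 1667, under WT1, the lowest WT mouse, at 1747. The log2 fold change of -0.51 (SE 0.235) did not pass the test (edgeR adjusted p = 0.201). *Rplp0*, the base of the stalk and a common reference gene in RT-qPCR, had 884, 881, 899, 920 and 1134 FPKM in TG1 to TG5 and 1366, 925, 1438, 1087 and 1271 in WT1 to WT5. Its log2 fold change was -0.37 (SE 0.186, edgeR adjusted p = 0.234). *Rplp2* was at 349 ± 134 FPKM in HSD17B1TG and 386 ± 58.8 in WT, a log2 difference of -0.15 (SE 0.251) that ran from -0.40 without TG5 to -0.033 without TG2. *Rplp1* had the highest level of the 79 genes per gene length and per main transcript alike.

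**Figure D4:**
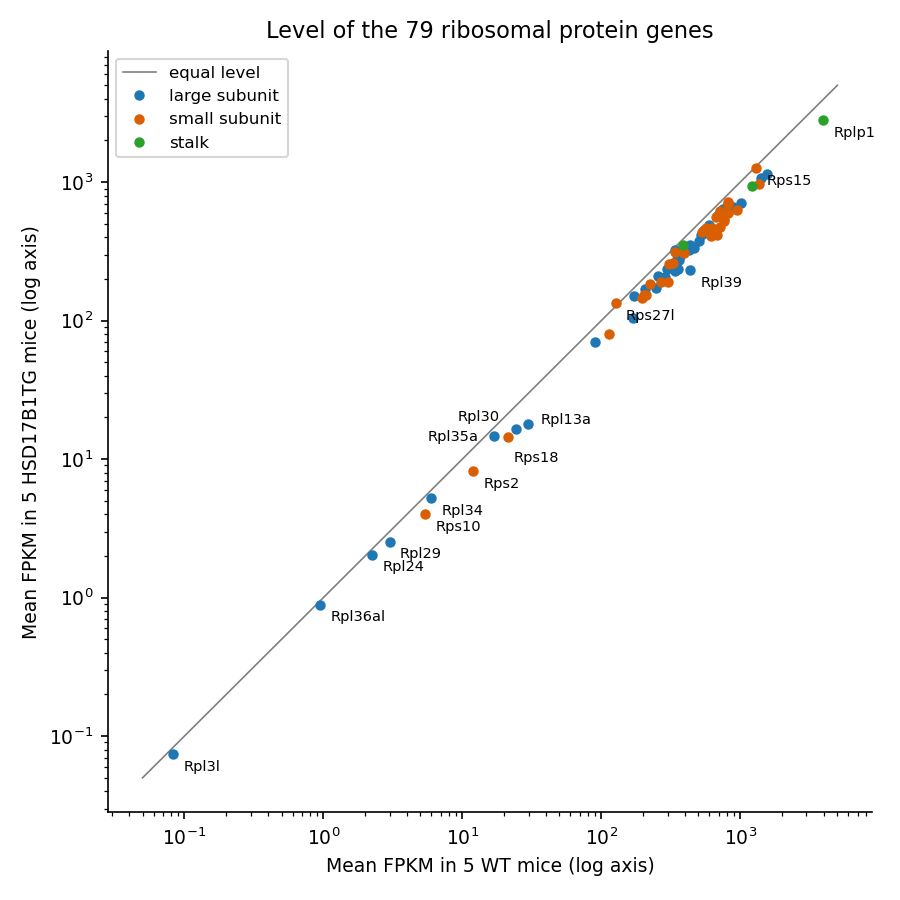
Mean FPKM of each of the 79 genes in 5 HSD17B1TG mice against 5 WT mice, both on log axes, coloured by subunit, with the line of equal level. Most genes lie a little under the line, and 11 genes lie apart below 50 FPKM.

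The values of 3 paralogs are given beside those of their parents. *Rps27l*, a paralog of *Rps27* that p53 induces, had 105, 111, 136, 145 and 169 FPKM in TG1 to TG5 and 104, 133, 109, 174 and 115 in WT1 to WT5. The groups overlapped throughout, and the log2 fold change of 0.07 (SE 0.182) turned to -0.023 with upper quartile scaling and to -0.11 with total counts. *Rps27* itself was at 412 ± 184 FPKM in HSD17B1TG and 676 ± 170 in WT, with a log2 fold change of -0.72 (SE 0.311, edgeR adjusted p = 0.173). *Rpl36al* was at 0.889 ± 0.496 and 0.945 ± 0.360 FPKM, with a log2 fold change of -0.09 (SE 0.447), against 235 ± 50.05 and 354 ± 64.4 for its parent *Rpl36a*, for which the log2 fold change was -0.60 (SE 0.192, edgeR adjusted p = 0.0809). *Rpl3l*, the form of *Rpl3* found in heart and skeletal muscle, had 0 to 5 counts per mouse and was not tested. Differences between a paralog and its parent were not tested.

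The levels of 11 genes were far under those of the rest. They lay at 0.0783 to 23.9 FPKM over the 10 mice, while the next gene, *Rpl21*, was at 80.0 and the median of the 79 genes was 352. The 11 are *Rpl3l*, *Rpl36al*, *Rpl24*, *Rpl29*, *Rps10*, *Rpl34*, *Rps2*, *Rpl35a*, *Rps18*, *Rpl30* and *Rpl13a*, of which all but the muscle form and *Rpl36al* encode standard parts of every ribosome. A second annotated gene on the same strand overlaps 63.1% of the exon bases of *Rpl36al*, 71.5% of *Rpl24*, 70.8% of *Rps10* and 59.3% of *Rpl13a* in GENCODE M21, and 10.7% of those of *Rpl19*, with no such overlap in the other genes. These overlapping genes are not listed in the deposited table. Of the other 7 low genes, 6 carry stretches of 150 bases, the read length, that also occur in other genes, from 7.58% of the stretches of *Rpl34* to 44.8% of those of *Rps2*, and *Rpl3l* carries none. Genes with higher levels carry such stretches too, as in 98.0% of those of *Rps27*, which was at 544 FPKM. These 11 levels are uncertain as measures of the mRNA, and the 3 smallest p-values of the set, of *Rpl13a*, *Rps18* and *Rps2*, belong to them. Without these genes, 0 of 68 were called by edgeR in either direction, against 2.81% lower and 3.34% higher of all genes, 19 (27.9%) were lower at an unadjusted p under 0.05, against 11.4%, and the median stayed at -0.38.

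Pseudogene copies also took counts. The 200 listed ribosomal protein pseudogenes had 7.04 ± 0.766 counts per 100 counts of the ribosomal protein genes in HSD17B1TG and 6.27 ± 0.656 in WT. Of the 95 that were tested, 0 were called by edgeR in either direction, and at an unadjusted p under 0.05, 6 (6.32%) were lower, against 11.4% of all genes, and 0 higher, against 14.7%. The log2 fold change was below 0 for 73 (76.8%), with a median of -0.15. For the 57 genes with a counted pseudogene, its counts were added, in CPM of all counts. The median log2 ratio of the group means moved from -0.59 to -0.55, and 57 of 57 stayed below 0. For some low genes, most counts lay on the pseudogenes. The HSD17B1TG means were 14.3 CPM for *Rps2* and 568 for its pseudogenes, and 8.87 for *Rps10* and 177 for its pseudogenes. With pseudogenes added, the log2 ratio moved from -0.72 to -0.41 for *Rps2* and from -0.61 to -0.29 for *Rps10*. For *Rpl34* it moved from -0.39 to -0.45. *Rps2* with its pseudogenes had 424 to 776 CPM in HSD17B1TG and 586 to 986 in WT. Which copy the reads came from was not tested.

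*Rpl17* and *Rpl30*, chosen here after their values were seen, varied most without regard to genotype. *Rpl17*, whose protein lines the exit tunnel, was at 163 FPKM in TG1, 165 in TG4 and 153 in WT4, and at 323 to 719 in the other 7 mice. In CPM of all counts, *Rpl17* had 121 in TG1, 125 in TG4 and 117 in WT4, where the pseudogene *Rpl17-ps10* had 431, 409 and 369. In WT2, *Rpl17* had 403 and *Rpl17-ps10* had 116, but both were high in WT1, at 303 and 402, and in WT3, at 432 and 426. The sum of *Rpl17* and its 8 pseudogenes ran from 597 to 1118, with an SD of 0.32 on the log2 scale over the 10 mice, against 0.85 for *Rpl17* alone. *Rpl7a* showed the same to a lesser degree, with an SD of 0.62 alone and 0.43 with its 9 pseudogenes, whose counts were highest in TG4 and TG5. *Rpl30* had 4.46 to 16.7 FPKM in TG1 to TG4, WT1 and WT3, and 30.8 to 46.8 in TG5, WT2, WT4 and WT5, and its SD of 1.28 stayed at 1.13 with its 9 pseudogenes added, which summed to 3.20 to 9.79 CPM. The FPKM of *Rpl17* and *Rpl7a* are thus uncertain as levels of their mRNA.

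The make-up of the set was compared as the percent of all ribosomal protein counts of a mouse that each gene took, with no test. The values of HSD17B1TG and WT overlapped for each of the 79 genes, and the ratio of the group means ran from 0.678 for *Rpl39* to 1.33 for *Rps27l*. Some overlaps rested on 1 mouse. *Rpl27* took 1.04% ± 0.067 in HSD17B1TG and 0.842% ± 0.096 in WT, and the groups met only where TG4, at 0.932%, lay under WT4, at 0.949%. *Rpl36a* took 0.805% ± 0.067 and 0.929% ± 0.030, and only TG1, at 0.922%, reached the WT values. The 10 highest genes took 27.2% of these counts, and the 11 low genes took 0.476%.

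Other genes of the ribosome were outside the symbols used. Of 6 such components tested, 1 (16.7%) was called lower, against 2.81% of all genes, and 0 higher, against 3.34%. This was *Rpl22l1*, a paralog of *Rpl22*, at 25.8, 24.0, 24.2, 32.0 and 33.2 FPKM in TG1 to TG5 and 36.1, 39.3, 64.9, 47.5 and 48.3 in WT1 to WT5, without overlap. *Rpl22l1* fell by 0.77 on the log2 scale (SE 0.180, edgeR adjusted p = 0.0379), a call kept in 4 of 10 fits that left out 1 mouse. *Rack1*, a scaffold on the small subunit, had a log2 fold change of -0.36 (SE 0.203), *Rps3a1* of -0.17 (SE 0.214) and *Fau*, made as a fusion with a ubiquitin-like protein, of 0.04 (SE 0.219).

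Of 82 ribosome biogenesis factors tested, which build the subunits, 71 (86.6%) had a log2 fold change below 0, against 49.8% of all genes, with a median of -0.27. At an unadjusted p under 0.05, 25 (30.5%) were lower, against 11.4% of all genes, and 1 (1.22%) was higher, against 14.7%. After adjustment, 1 (1.22%) was called lower, against 2.81%, and 0 higher, against 3.34%, and with 1 mouse left out the number called lower ran from 0 to 18, with 18 without TG3, 8 without WT4, 1 without TG1 and 0 without any of the other 7 mice. Of all genes, 4.66% were called lower without TG3, 6.07% without WT4, 4.89% without TG1 and 0.173% to 0.973% without one of the other 7. The gene called in the main test, *Gnl3*, the nucleolar GTPase nucleostemin, fell by 0.76 (SE 0.193, edgeR adjusted p = 0.0451), from 15.6 ± 3.56 FPKM in WT to 9.29 ± 2.06 in HSD17B1TG. The call of *Gnl3* held in 2 of 10 fits that left out 1 mouse and in 11 of 12 other settings. *Sbds*, which helps release the finished large subunit, had the smallest p in the other direction, with a log2 fold change of 0.46 (SE 0.163, edgeR adjusted p = 0.104).

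Of 15 genes of the RNA polymerase I machinery, which transcribes the ribosomal RNA genes, 1 (6.67%) was called lower, against 2.81% of all genes, and 0 higher, with 12 below 0 and a median of -0.19. At an unadjusted p under 0.05, 4 (26.7%) were lower, against 11.4%, and 1 (6.67%) higher, against 14.7%. With 1 mouse left out, 0 to 3 were called lower, with 3 without TG3, 2 without WT4, 1 without TG1 and 0 without each other mouse. Of all genes, 4.66%, 6.07%, 4.89% and 0.173% to 0.973% were called lower in these fits. Without WT4, 1 was called higher, against 7.70% of all genes. *Polr1a*, the largest subunit, fell by 0.73 (SE 0.153, edgeR adjusted p = 0.0293), at 3.52, 3.75, 4.35, 2.69 and 2.78 FPKM in TG1 to TG5 and 6.52, 5.91, 5.76, 4.92 and 5.08 in WT1 to WT5. The groups did not overlap for *Polr1a*, and the call was kept in 3 of 10 fits that left out 1 mouse. *Polr1d* had the smallest p among the genes above 0, with a log2 fold change of 0.49 (SE 0.166, edgeR adjusted p = 0.0940).

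Of 46 translation initiation and elongation factors tested, 1 (2.17%) was called higher, against 3.34% of all genes, and 0 lower, against 2.81%. Among the 46, 33 lay below 0, and the median was -0.12. At an unadjusted p under 0.05, 6 (13.04%) were lower, against 11.4% of all genes, and 2 (4.35%) higher, against 14.7%. The number called higher was 1 without TG1, TG3 or WT4, where 7.23%, 3.23% and 7.70% of all genes were called higher. It was 0 without each other mouse, where 0.262% to 0.759% of all genes were. Without TG3, 1 was called lower, against 4.66% of all genes. *Eef2k*, the kinase that slows elongation by phosphorylating eEF2, rose by 0.76 (SE 0.151, edgeR adjusted p = 0.0255), with 11.02, 11.9, 9.30, 11.9 and 9.61 FPKM in TG1 to TG5 and 5.99, 5.41, 6.29, 8.51 and 5.31 in WT1 to WT5. All HSD17B1TG mice were above all WT mice, as for 4.04% of all genes tested, and the call of *Eef2k* was kept in 3 of 10 fits that left out 1 mouse. *Eef1g*, a subunit of the elongation factor 1 complex whose mRNA carries a TOP tract, was at 282 ± 32.4 FPKM in HSD17B1TG and 399 ± 47.6 in WT, without overlap, and had a log2 fold change of -0.51 (SE 0.154, edgeR adjusted p = 0.0688). The 77 mitochondrial ribosomal protein genes, whose products serve the ribosome inside mitochondria, had a median of -0.02. EdgeR called 0 of them in either direction, against 2.81% lower and 3.34% higher of all genes. At an unadjusted p under 0.05, 4 (5.19%) were lower, against 11.4%, and 3 (3.90%) higher, against 14.7%.

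Of 24 genes of the mTORC1 and MYC control of ribosome production, 1 was called higher and 1 lower (4.17% each), against 3.34% and 2.81% of all genes. Among the 24, 11 lay below 0, and the median was 0.07. At an unadjusted p under 0.05, 2 (8.33%) were lower, against 11.4%, and 4 (16.7%) higher, against 14.7%. With 1 mouse left out, 3 were called higher without TG1 or TG3, 2 without WT4 and 0 without each other mouse. Of all genes, 7.23% were called higher without TG1, 3.23% without TG3, 7.70% without WT4 and 0.262% to 0.759% without one of the others. In these fits, 1 gene of the list was called lower without WT4, against 6.07% of all genes, and 0 otherwise. *Myc* fell by 1.25 (SE 0.328, edgeR adjusted p = 0.0498), from 27.4, 29.7, 53.7, 11.7 and 42.0 FPKM in WT1 to WT5 to 14.9, 10.98, 14.4, 14.0 and 15.6 in TG1 to TG5. WT4 was as low as the HSD17B1TG mice, and the call was kept in 1 of 10 fits that left out 1 mouse and in 7 of 12 other settings. *Deptor*, an inhibitor bound to mTOR, rose by 1.22 (SE 0.273, edgeR adjusted p = 0.0339), a call kept in 3 of 10 such fits. *Mtor* was at 4.72 ± 0.566 FPKM in HSD17B1TG and 6.09 ± 0.482 in WT, without overlap (edgeR adjusted p = 0.0756), and *Larp1* was at 29.1 ± 5.71 and 27.4 ± 3.68 FPKM.

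**Figure D5:**
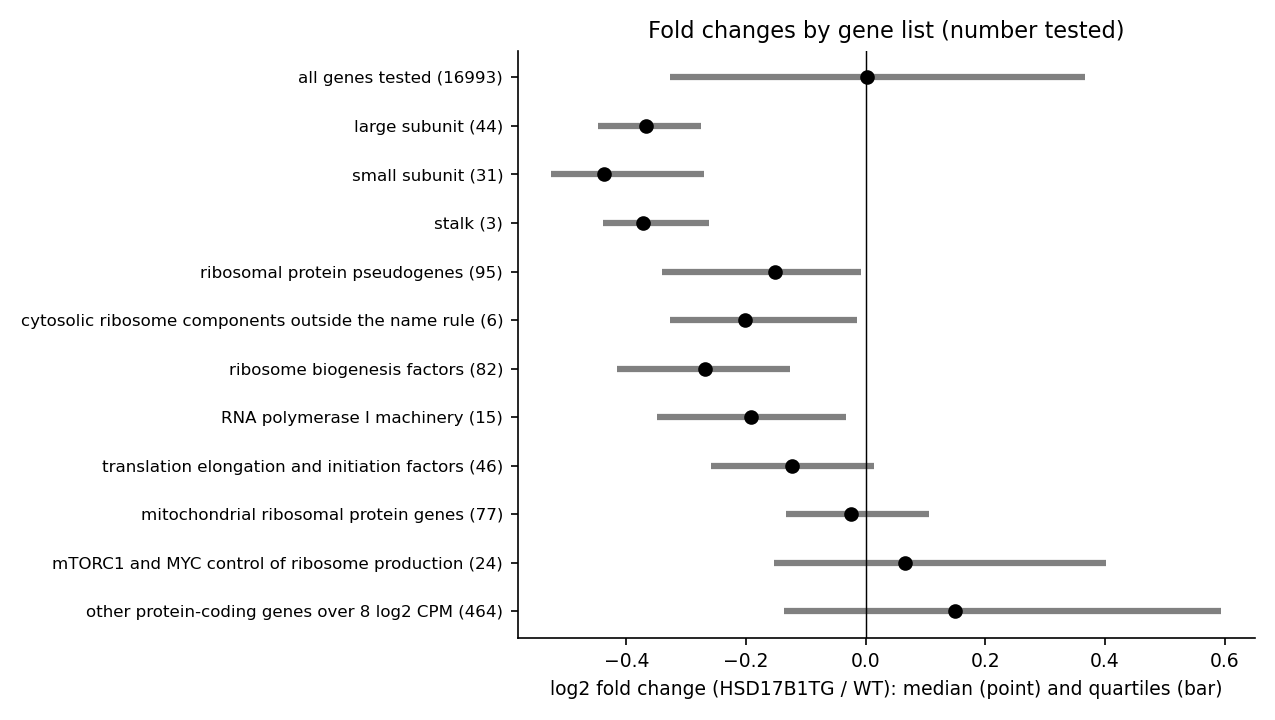
Median (point) and quartiles (bar) of the log2 fold change (HSD17B1TG over WT) for the ribosomal protein genes by subunit, for related gene lists and for all genes tested, with the number of genes tested in brackets. The subunits lie at -0.37 to -0.44, the mitochondrial ribosomal protein genes at -0.02, and other protein-coding genes over 8 log2 CPM at 0.15.

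For the 464 other protein-coding genes over 8 log2 CPM the median log2 fold change was 0.15. Of these, 18 (3.88%) were called lower, against 2.81% of all genes, and 28 (6.03%) higher, against 3.34%. The 31 of the 464 genes with a main transcript under 1000 bases had a median of 0.33. The part of expression level and mRNA length in the values of the ribosomal protein genes was not tested.

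Among the cell type markers, some of those of the stroma were lower in HSD17B1TG. All 10 stroma markers were detected in each mouse, among them *Hoxa10* and *Hoxa11* of the uterus, and their median was -1.69. Of the 10, 6 (60%) were called lower, against 2.81% of all genes, and 0 higher, against 3.34%. Their summed level was 2586 to 12629 CPM in HSD17B1TG and 14446 to 15684 CPM in WT. The 10 epithelium markers had a median of 1.22 and a summed level of 1453 to 5798 CPM in HSD17B1TG and 1073 to 3814 CPM in WT, and the 10 smooth muscle markers a median of 0.64 and 2668 to 23855 CPM against 1631 to 17775 CPM. None of these 20 genes was called by edgeR, and 7 epithelium markers (70%) were higher at an unadjusted p under 0.05, against 14.7% of all genes. The 8 endothelium markers had a median of -0.58, at 98.9 to 427 CPM against 252.2 to 591 CPM, with 0 called. At an unadjusted p under 0.05, 3 of the 8 (37.5%) were lower, against 11.4% of all genes, and 1 (12.5%) higher, against 14.7%. Of 10 leucocyte markers tested, 2 (20%) were called higher, against 3.34% of all genes, and 0 lower, against 2.81%. Among these 10, 7 lay below 0 and the median was -0.34, with sums of 456 to 602 CPM against 293 to 587 CPM. At an unadjusted p under 0.05, 3 (30%) were lower, against 11.4%, and 2 (20%) higher, against 14.7%. The 14 proliferation genes had a median of -0.47 with 0 called and 0 at an unadjusted p under 0.05, and their sums ran from 105 to 1944 CPM in HSD17B1TG and 273 to 1044 CPM in WT. Skeletal muscle, erythrocyte and oviduct markers summed to at most 121, 134 and 35.2 CPM in any mouse, with 0 called by edgeR, and 0 of the 5 adipocyte markers listed passed the filter. The part of tissue composition in the lower ribosomal protein levels was not tested.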

How the data were processed

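RNA of whole uteri was sequenced as paired-end reads of 150 bases, and the authors mapped the reads with HISAT2 2.0.5 (version from the submitters' processing notes) to GRCm38 with Ensembl genes. How reads were assigned to genes (program, use of strand, multi-mapped reads) is not given in the sources used here, so counts of genes with near-identical copies are uncertain. The authors deposited raw counts per gene, a signal that is the count divided by a DESeq2 size factor, and FPKM on the table's gene length. Columns of the authors' own comparison and tables of its terms were not used. No column belonged to samples outside the series (0).

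Samples were grouped by the strain in their labels. The labels name no batch but give each mouse a number of unstated meaning, which was tried as a covariate. The test on counts was that of edgeR 4.0.16 (R 4.3.3, filterByExpr, TMM, quasi-likelihood, Benjamini-Hochberg), with SE as the fold change over the root of F. Log2 CPM used a prior count of 2. Single genes also had a two-sided exact permutation test over all assignments of mice. DESeq2 1.42.0 and limma 3.58.1 gave alternatives, and the scripts were tested on simulated data. A count of 3 in the shallowest mouse is 0.202 CPM, which covers counting error only.

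The genes and lists were chosen with earlier results of these data known. The genes named are those called, 5 at each end of the fold changes, the 5 with the highest FPKM, paralogs with their parents, the stalk genes, *Rpsa*, *Rps6*, *Rps27a* and, per list, the smallest p in each direction; any others were named after their values were seen. Start sites came from RefSeq (GRCm38.p6) and exon overlaps from GENCODE M21 of the same build.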

Additional observations from a re-analysis of the deposited data

Results flagged for a closer look

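Of 42 sets of 5 mice examined for a sample far from the others, 1 was marked. The log2 CPM of *Rplp0* in TG5, 10.89, stood above the other HSD17B1TG mice by 0.811 of the whole range of the group, against a critical value of 0.710. Chance marks about 1 in 20 such sets. TG5 also had the lowest TMM factor of the 10 mice, 0.845.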

How the results depend on the processing

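Under the other settings, 0 ribosomal protein genes were called higher throughout, and the number called lower, 1 in the main test, was 14 with the DESeq2 Wald test, 0 with limma voom, 2 with limma on log2(FPKM + 1) or log2(FPKM + 0.1), 4 with upper quartile scaling, 18 with total counts only, 2 with TMM without mitochondrial genes or without the ribosomal protein genes, 0 without a filter on low counts and 2 with a filter of 1 CPM in 5 mice. Without the 11 genes under 50 FPKM, an alternative chosen after seeing the data, it was 0, and with the number that the labels give each mouse as a covariate, also chosen after seeing the data, it was 0 and *Rps12* turned to 0.016. Of all genes, 1.58% to 3.62% were called lower in these fits, except for 7.19% with DESeq2 and 4.65% with total counts. Leaving out 1 mouse in turn gave 0 to 4, with 4 without WT4, 3 without TG3, 1 without TG1 and 0 without any other, where 6.07%, 4.66%, 4.89% and 0.173% to 0.973% of all genes were called lower. The cause of these moves was not tested. The median log2 fold change stayed between -0.51 and -0.33 when 1 mouse was left out. The difference in the share of counts, -2.22 percentage points, was -4.41 as a share of summed FPKM and -2.52 to -1.85 with 1 mouse left out. The share of summed FPKM is larger in both groups, and the ratio of the group means was 0.656 for summed FPKM and 0.672 for counts. *Rps27l* turned from 0.07 to -0.023 with upper quartile scaling and to -0.11 with total counts. With 1 mouse left out, *Rps27l* ran from -0.036 to 0.20, *Rpl36al* from -0.46 to 0.13, *Rps12* from -0.38 to 0.020 and *Rps15* from -0.15 to 0.00027, and they turned sign without TG5, WT1 or WT3, without TG4 or WT1, without WT3 and without TG2, respectively. The 14 genes that DESeq2 called lower were all among the 18 called with total counts only. Of these, *Rpl13a*, *Rpl15*, *Rps18* and *Rps2* were also called with upper quartile scaling. *Rps18* was called too with TMM without mitochondrial genes or without the ribosomal protein genes and with the filter of 1 CPM, and *Rps2* with limma on FPKM. No paired analysis was possible because the labels tie no mouse of one group to a mouse of the other and the replicate numbers only name the mice. The lowest counts were 0 to 5 per mouse for *Rpl3l*, 6 to 49 for *Rpl36al*, 31 to 67 for *Rpl24* and 37 to 91 for *Rpl29*.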
